A study of Mus musculus with 12 samples.

Results

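H3K4me3, a histone mark typical of active promoters, was examined at 7 mouse genes that link the serum response factor (SRF) to the contractile apparatus, namely *Myocd*, *Srf*, *Mkl1*, *Mkl2*, *Mylk*, *Mylk3* and *Mylk4*. Members were taken by name as every H3K4me3 peak that the deposited table assigns to these genes, which gave 6 of 15848 peaks. These 6 peaks belong to 5 of the 7 genes, since *Mylk* and *Mylk4* had no peak under their own name. The genes were chosen by their normalized H3K4me3 counts in this same contrast, with lower values at *Mylk3* and *Myocd* already known, so differences at the 6 peaks are described here without a test. A further 5 peaks lie within the 7 genes or 10000 bases on either side but carry another gene name or none. These 5 peaks were not among those taken by name and were tested, although they come from the same libraries. That in *Mylk3* shares its gene with peaks that led to the choice. The 7 genes were listed with earlier results of these data known, so these tests are not shown to be independent of the choice.

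The libraries came from nuclei of adult heart muscle cells, or cardiomyocytes (CMs), sorted from ventricles with an antibody to PCM1, a protein at the surface of CM nuclei. Each genotype was represented by 3 libraries, of CtrlCre (*αMHC-Cre* pos/+; *Cpt1b* +/+) or Cpt1bcKO (*αMHC-Cre* pos/+; *Cpt1b* fl/fl) mice. *Cpt1b* encodes the muscle form of the enzyme that lets long-chain fatty acids enter mitochondria. Both groups carry Cre, driven in CMs by the α-myosin heavy chain promoter, and the floxed gene was lost at embryonic stages, so the adult nuclei had been without it since then. The mice were kept on a C57BL/6 background with littermates as controls. The age in weeks and whether libraries pool several animals were not given in the sources used here for these libraries. Differences are thus between 3 and 3 libraries, and p-values measure the spread between these.

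SRF binds CArG boxes, short AT-rich DNA elements, in front of muscle and immediate early genes, and needs partners to activate them. Myocardin, the product of *Myocd*, is a strong coactivator of SRF in heart and smooth muscle, whereas its relatives MKL1 and MKL2 (also MRTF-A and MRTF-B) are held outside the nucleus by monomeric actin and move in when actin polymerizes. The myosin light chain kinases add phosphate to the regulatory light chain of myosin, with *Mylk3* encoding the cardiac enzyme, *Mylk* the smooth muscle and non-muscle enzyme, and *Mylk4* a further member of the family.

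The sequence in front of the start sites differed between these genes, and the stretches that bear on the peaks described below are shown. They are the 250 bases upstream of RefSeq starts on GRCm38.p6, read 5′ to 3′ on the strand of the gene, and RefSeq promoters were available for 6 of the 7 genes and not for *Myocd*. Capitals mark 4 motifs searched on both strands: the CArG box (CC, 6 bases of A or T, then GG), the MEF2 box, GATAA, which holds the core bound by GATA factors, and GGAATG, which is bound by TEAD factors.
Srf, chr17:46556163-46556412, minus strand: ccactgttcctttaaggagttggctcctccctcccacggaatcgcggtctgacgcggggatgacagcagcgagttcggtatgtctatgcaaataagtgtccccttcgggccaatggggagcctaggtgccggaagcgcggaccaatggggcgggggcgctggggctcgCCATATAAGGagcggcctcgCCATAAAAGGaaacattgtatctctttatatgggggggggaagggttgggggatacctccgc
Mylk3 at the start under its promoter peak, chr8:85381042-85381291, minus strand: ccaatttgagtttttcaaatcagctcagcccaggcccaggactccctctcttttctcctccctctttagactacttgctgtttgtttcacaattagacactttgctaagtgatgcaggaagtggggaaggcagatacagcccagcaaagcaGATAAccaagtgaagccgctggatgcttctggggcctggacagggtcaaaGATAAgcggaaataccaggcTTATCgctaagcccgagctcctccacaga
Mylk3 at the start under its internal peak, chr8:85365325-85365574, minus strand: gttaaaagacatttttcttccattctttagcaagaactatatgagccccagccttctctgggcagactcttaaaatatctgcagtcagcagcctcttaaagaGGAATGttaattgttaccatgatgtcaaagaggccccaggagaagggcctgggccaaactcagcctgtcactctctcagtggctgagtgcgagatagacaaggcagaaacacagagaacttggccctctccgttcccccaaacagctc
Mkl2 at its first start, chr16:13256231-13256480, plus strand: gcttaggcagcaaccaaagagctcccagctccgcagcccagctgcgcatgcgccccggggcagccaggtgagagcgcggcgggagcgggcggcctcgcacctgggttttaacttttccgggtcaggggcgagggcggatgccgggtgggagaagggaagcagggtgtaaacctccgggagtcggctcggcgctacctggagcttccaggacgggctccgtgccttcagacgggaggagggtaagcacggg
Mkl2 at its internal start, chr16:13358171-13358420, plus strand: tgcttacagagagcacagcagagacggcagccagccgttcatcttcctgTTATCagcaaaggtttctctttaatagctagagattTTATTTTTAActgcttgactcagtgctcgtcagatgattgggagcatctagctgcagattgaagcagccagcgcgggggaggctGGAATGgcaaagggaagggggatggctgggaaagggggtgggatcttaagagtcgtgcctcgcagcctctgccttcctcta
The *Srf* promoter held 2 CArG boxes, at bases -82 to -73 and -62 to -53 from the start, and CArG boxes occurred in 1.47% of 32851 RefSeq promoter windows of the same length. The window at the *Mylk3* start under the peak labelled promoter held 3 copies of GATAA, a motif found in 22.6% of windows. The start under the internal *Mylk3* peak had GGAATG, as did 12.6% of windows. The internal start of *Mkl2* had a MEF2 box, present in 2.92% of windows, as well as GATAA and GGAATG. CpG dinucleotides numbered 17 at *Srf* and 22 at the first start of *Mkl2*, against 4 and 2 at the *Mylk3* starts and 7 at the internal *Mkl2* start, with a median of 6 over all windows. No printed match overlapped another. A motif match describes the letters only and says nothing of what binds there.

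All peaks were compared between the genotypes on the scale of normalized counts, that is the count of a peak divided by a size factor of the library. Counts in peaks recovered from the table ranged from 763133 in CtrlCre replicate 2 to 2766416 in Cpt1bcKO replicate 2, and correlations of log2 values between libraries from 0.914 to 0.967. Size factors set the bulk of peaks to no change, so that a change shared by all peaks would not show. In nuclei taken in bulk, less of the mark per nucleus and fewer nuclei carrying it cannot be told apart. Among 15039 tested peaks, those with a mean of at least 10 normalized counts, 274 were lower (1.82%) and 167 were higher (1.11%) in Cpt1bcKO CMs at an adjusted p under 0.05 in limma, or 2.93% in either direction. Of the 6 member peaks, 3 were on the lower side of this threshold, from which nothing can be read because these genes were chosen with the contrast known.

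The coactivator gene was examined first. The *Myocd* peak (chr11:65265736-65271617, mm10) covered the starts of 3 of the 6 annotated *Myocd* transcripts and extended into the first part of the gene, with 72.3% of its length inside *Myocd* and 66.4% in introns. Normalized counts were 452, 423 and 454 in CtrlCre replicates 1 to 3 and 286, 314 and 263 in Cpt1bcKO replicates 1 to 3. All Cpt1bcKO values lay below all control values. The mean of Cpt1bcKO CMs, 288 ± 25.5, was 0.649 times the control mean of 443 ± 17.3 (SD, n = 3 each). The log2 difference was -0.62 (SE 0.10), and it lay between -0.69 and -0.56 when single libraries were left out. The gene was chosen on these values, so this range says nothing of stability. This peak rested on recovered counts of 182 to 537 per library, so that counting error was at most 7.41% of a value.

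**Figure D1:**
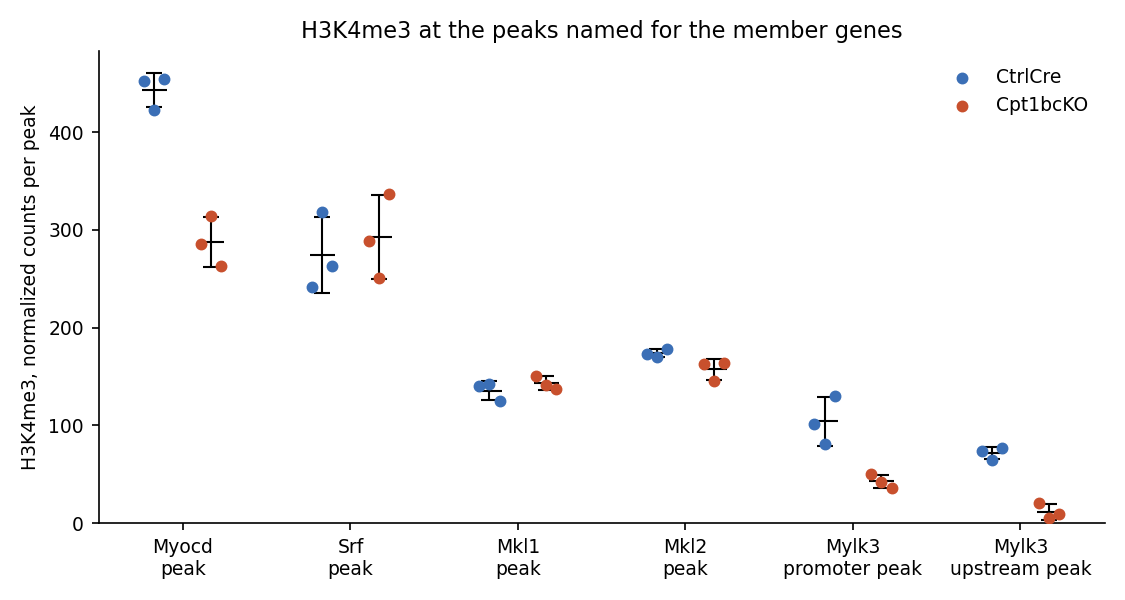
Normalized H3K4me3 counts (y axis) at the 6 peaks named for *Myocd*, *Srf*, *Mkl1*, *Mkl2* and *Mylk3* (x axis), with a point for each of 3 CtrlCre (blue) and 3 Cpt1bcKO libraries (red) and bars for mean and SD. The genotypes stand apart at *Myocd* and at both *Mylk3* peaks, whereas their values overlap at *Srf* and *Mkl1* and lie close together at *Mkl2*.

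The genes for SRF itself and for the actin-regulated coactivators showed no such gap. *Srf* (chr17:46552669-46556840) had 242, 318 and 263 normalized counts in the controls and 289, 251 and 337 in Cpt1bcKO libraries. These values overlapped, with means of 274 ± 39.2 and 292 ± 43.1 (SD, n = 3 each) and a log2 difference of 0.09 (SE 0.12) that turned to -0.017 without Cpt1bcKO replicate 3. A microRNA gene, *Mir6976*, also starts under this peak, so its signal is not of *Srf* alone.

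*Mkl1* (chr15:81190018-81191498) is named *Mrtfa* in newer annotation. It had 140, 142 and 125 normalized counts in controls and 151, 141 and 137 in Cpt1bcKO libraries, again with overlap. The log2 difference was 0.08 (SE 0.11), with means of 136 ± 9.29 and 143 ± 7.21 (SD, n = 3 each). The peak covered 5 of 10 annotated *Mkl1* starts and also the start of *4930483J18Rik*, which cannot be separated from *Mkl1* here.

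*Mkl2*, or *Mrtfb*, had its named peak (chr16:13255977-13257938) at the first start of the gene. The controls measured 173, 170 and 178 normalized counts and the Cpt1bcKO libraries 163, 145 and 164, so every Cpt1bcKO value was below the lowest control. Such separation was found downward at 8.46% and upward at 7.8% of tested peaks. The difference was small, at -0.14 on the log2 scale (SE 0.11), with means of 174 ± 4.04 and 157 ± 10.7 (SD, n = 3 each). Under 14 alternative settings it lay between -0.17 and -0.09.

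**Figure D2:**
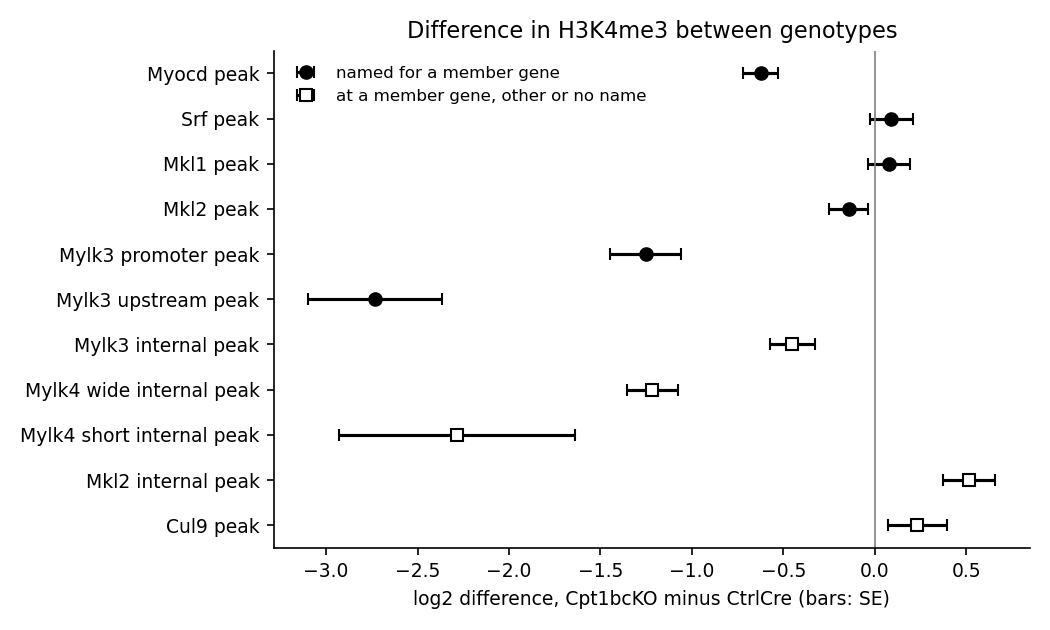
Log2 difference in H3K4me3 between Cpt1bcKO and CtrlCre CMs (x axis, with SE from limma over 3 libraries each) at the 6 member peaks (filled circles) and the 5 other peaks at the same genes (open squares). Peaks in *Myocd*, *Mylk3* and *Mylk4* lie to the left of 0, those at *Srf*, *Mkl1* and the first *Mkl2* start close to 0, and the internal *Mkl2* peak to the right.

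A further peak was found deep within *Mkl2*. This peak (chr16:13357838-13360955) lay entirely inside the gene over the start of a protein-coding transcript, 101940 bases downstream of the first start, and carried no gene name in the table. Its values were 98, 109 and 149 in controls and 146, 162 and 198 in Cpt1bcKO libraries, where CtrlCre replicate 3 overlapped the lowest Cpt1bcKO value. The means were 119 ± 26.8 and 169 ± 26.6 (SD, n = 3 each), a log2 difference of 0.52 (SE 0.14). The adjusted p of 0.0544 in limma missed the threshold. Across 14 alternatives the adjusted p ranged from 0.00837 to 0.323 and passed in 3. Relative to the peak at the first start, the internal peak amounted to 56.6, 64.1 and 83.7% in controls and to 89.6, 112 and 121% in Cpt1bcKO libraries. These shares did not overlap, but the peak at the first start was itself lower in Cpt1bcKO libraries. How often such ratios separate elsewhere was not determined.

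The kinase gene *Mylk3* carried 3 peaks, each over annotated transcript starts. The farthest upstream (chr8:85384412-85386690), called here the upstream peak, covered the first annotated start of the gene. The next (chr8:85378374-85382581), the promoter peak, covered starts 5367 and 5311 bases downstream of the first. The widest (chr8:85357623-85365731), the internal peak, covered starts 21021 and 20998 bases downstream and had no gene name in the table. Thus all 5 annotated *Mylk3* transcripts start under a peak. The names are labels only. The promoter peak is the one of higher mean among the peaks that carry the name *Mylk3*, and the internal peak, also over starts, was stronger.

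The promoter peak had 101, 81 and 130 normalized counts in controls and 50, 42 and 36 in Cpt1bcKO libraries. No values overlapped, and the mean of 42.7 ± 7.02 in Cpt1bcKO CMs was 0.41 times that of 104 ± 24.6 in controls (SD, n = 3 each). The log2 difference was -1.25 (SE 0.19).

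At the upstream peak the controls measured 74, 65 and 77 and the Cpt1bcKO libraries 21, 5 and 9 normalized counts. The mean went from 72 ± 6.24 in controls to 11.7 ± 8.33 in Cpt1bcKO CMs (SD, n = 3 each), a log2 difference of -2.73 (SE 0.37). The low values rested on recovered counts of 19, 8 and 12, with counting errors of 22.9, 35.4 and 28.9%. They lay above the level of a recovered count of 3, which corresponds to 1.95 to 3.39 normalized counts in these libraries. The difference ranged from -3.23 to -2.30 without single libraries, in a gene that was chosen on these values.

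The internal peak held most of the *Mylk3* signal. Its values were 613, 553 and 650 in controls and 486, 511 and 347 in Cpt1bcKO libraries, again without overlap. The mean was 605 ± 49.0 in controls and 448 ± 88.4 in Cpt1bcKO CMs (SD, n = 3 each), a log2 difference of -0.45 (SE 0.12). In limma the adjusted p was 0.0439. This call was lost under 6 of 14 alternatives, with adjusted p-values from 0.0103 to 0.256, and CtrlCre replicates 1 and 3 and Cpt1bcKO replicates 1 and 3 were each needed for it. Without Cpt1bcKO replicate 3 the log2 difference was -0.28. Because neighbouring peaks of the gene led to its choice, this p is not independent evidence.

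The 3 *Mylk3* peaks thus differed from one another in how far they were apart between genotypes. The upstream peak amounted to 12.1, 11.8 and 11.8% of the internal peak in controls and to 4.32, 0.978 and 2.59% in Cpt1bcKO libraries. The promoter peak amounted to 16.5, 14.6 and 20% of the internal peak in controls against 10.3, 8.22 and 10.4% in Cpt1bcKO libraries. Neither share overlapped between the genotypes, in a gene that was chosen on this contrast. The summed value of the 3 peaks was 781 ± 79.2 in controls and 502 ± 95.6 in Cpt1bcKO CMs (SD, n = 3 each).

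**Figure D3:**
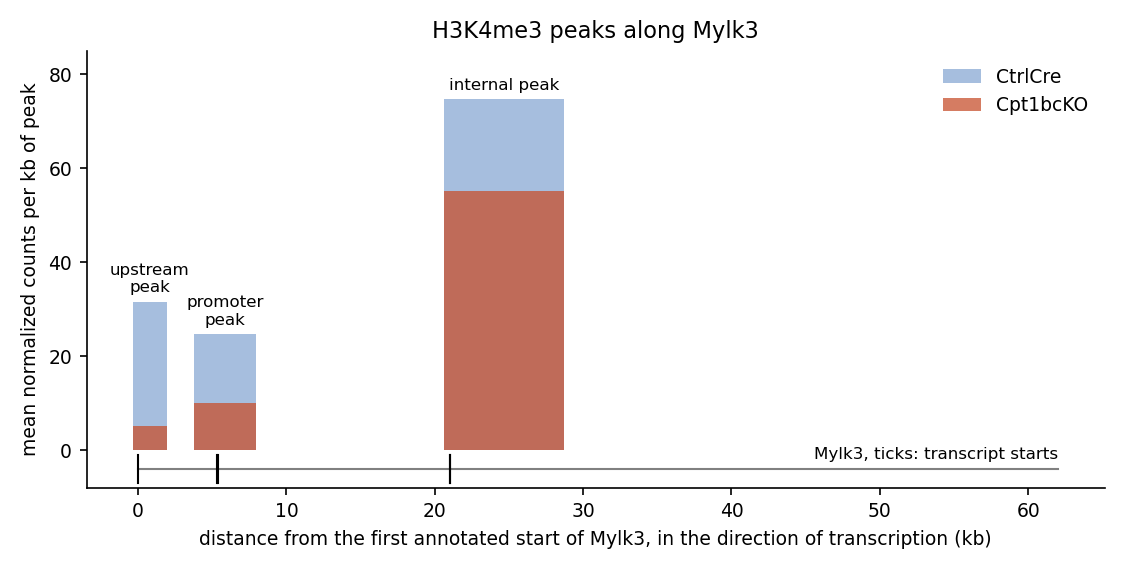
Mean normalized H3K4me3 counts per kilobase of peak (y axis) at the 3 *Mylk3* peaks against the distance from the first annotated start in the direction of transcription (x axis, kb), for CtrlCre (blue) and Cpt1bcKO CMs (red, drawn in front), with ticks at transcript starts. The internal peak is the tallest and widest, and the gap between genotypes, taken as a share of the control level, is smallest there.

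*Mylk4* had 2 peaks, both inside the gene and without a gene name. The wide internal peak (chr13:32772622-32776703) covered starts 7405 and 7541 bases downstream of the first annotated start, and no peak covered the other 2 of 4 starts. Its values were 297, 205 and 302 in controls and 116, 131 and 95 in Cpt1bcKO libraries, with no overlap. It fell from 268 ± 54.6 to 114 ± 18.1 normalized counts (SD, n = 3 each), a log2 difference of -1.22 (SE 0.14). In limma the adjusted p was 6.98e-06, and the call held under all 14 alternatives, with adjusted p-values from 2.46e-08 to 0.000361. *Mylk4* was listed with earlier results of these data known, so this p is not shown to be independent of the choice. In size the difference resembled that at the promoter peak of *Mylk3*, where the log2 difference was -1.25.

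The short internal *Mylk4* peak (chr13:32770017-32771022) lay in an intron, 5391 bases from the nearest annotated start. It had 7, 30 and 25 normalized counts in controls and 6, 3 and 1 in Cpt1bcKO libraries. The Cpt1bcKO values rested on recovered counts of 5, 4 and 2, near the level of a recovered count of 3. The fitted log2 difference of -2.28 (SE 0.65) therefore depends on the pseudocount. Its adjusted p was 0.0573 in limma and ranged from 0.0324 to 0.202 over 11 alternatives. The mean over all libraries was 12, so the peak passed the filter through its controls, with means of 20.7 in controls and 3.33 in Cpt1bcKO libraries. It was not tested without CtrlCre replicate 2 or 3, the highest controls, or with a stricter filter. The range of p thus leaves out the fits without its high controls, and no conclusion is drawn from it. The remaining peak, assigned to *Cul9* (chr17:46545596-46546631) and lying beyond the end of *Srf*, had means of 82.3 ± 18.0 and 95.7 ± 9.02 (SD, n = 3 each) and an adjusted p of 0.614 in limma. Of these 5 other peaks, 2 were therefore called lower, against 1.82% of all tested peaks and 7.85% of the CpG-poor ones described below. The 2 include the internal *Mylk3* peak, whose gene was chosen on this contrast, so the count is a description only.

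*Mylk*, the smooth muscle and non-muscle kinase gene on chromosome 16 (34745210 to 35002420), had no listed peak within the gene or 10000 bases around it, and none of its 8 annotated transcripts started under a peak. The table lists called peaks only, so the level of the mark at *Mylk* is not known from these values.

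The member peaks also differed in sequence composition and breadth, features that the choice did not use. The ratio of observed to expected CpG dinucleotides was 0.352 at the *Myocd* peak and 0.202, 0.167 and 0.211 at the promoter, upstream and internal *Mylk3* peaks. It was 0.196 at the wide *Mylk4* peak and 0.230 at the internal *Mkl2* peak. By contrast it was 0.622 at *Srf*, 0.767 at *Mkl1* and 0.759 at the first *Mkl2* start, near or above the median of 0.643 over tested peaks. At a limit of 0.4, set after these values were seen, 7.85% of 2243 CpG-poor tested peaks were lower and 2.99% were higher in Cpt1bcKO CMs. Among the 12796 other peaks 0.766% were lower and 0.781% were higher. The part of CpG content in the differences at the members was not tested.

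**Figure D4:**
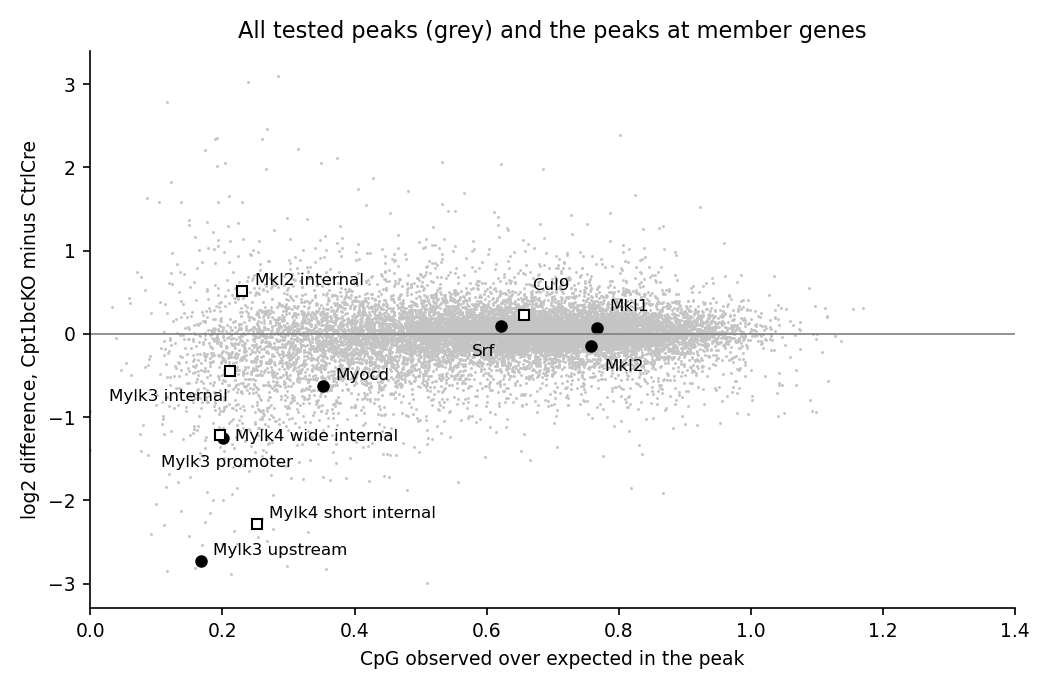
Log2 difference between Cpt1bcKO and CtrlCre CMs (y axis) against the ratio of observed to expected CpG (x axis) for 15039 tested peaks (grey), with the 6 member peaks (filled circles) and the 5 other peaks at these genes (open squares). *Srf*, *Mkl1*, *Cul9* and the first *Mkl2* start lie in the dense CpG-rich cloud near 0, and the *Mylk3*, *Mylk4*, *Myocd* and internal *Mkl2* peaks lie among CpG-poor peaks.

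In width, the internal *Mylk3* peak spanned 8108 bases and exceeded 99.2% of tested peaks, and the *Myocd* peak spanned 5881 bases and exceeded 97.9%. The *Srf* peak, at 4171 bases, and the promoter peak of *Mylk3*, at 4207 bases, were nearly equally wide. *Mkl1* and the first *Mkl2* start had narrower peaks of 1480 and 1961 bases. Levels per kilobase of peak were compared within each genotype. In controls the mean was 91.7 normalized counts per kilobase at *Mkl1*, 88.6 at the first *Mkl2* start, 75.3 at *Myocd*, 74.7 at the internal *Mylk3* peak and 65.8 at *Srf*, all above the median of 60.4 over tested peaks. In Cpt1bcKO CMs it was 96.6 at *Mkl1*, 80.2 at *Mkl2* and 70.1 at *Srf*, but 55.3 at the internal *Mylk3* peak and 48.9 at *Myocd*, below the median of 60.8. The upstream and promoter peaks of *Mylk3* held 31.6 and 24.7 normalized counts per kilobase in controls and 5.12 and 10.1 in Cpt1bcKO CMs. In controls 20% and 12.1% of tested peaks lay below them.

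The cell type of the nuclei was checked against marker genes. All 10 CM markers, among them *Tnnt2*, *Myh6* and *Ryr2*, had a named peak, with summed values of 8042 to 9874 in controls and 6211 to 8781 in Cpt1bcKO libraries. None was called. All but *Actn2* (0.02) had a log2 difference below 0, from -0.39 at *Myh6* to -0.09 at *Nkx2-5*. *Myocd*, *Mylk* and *Acta2* are also active in smooth muscle. Of 10 smooth muscle and pericyte markers, 5 had a named peak, with sums of 197 to 251 in controls and 96 to 151 in Cpt1bcKO libraries, and 1, *Acta2*, was called lower. Without *Acta2*, which CMs also express in the embryonic heart, the sums were 122 to 132 and 86 to 127. The others had log2 differences of -0.72 (*Myh11*), -0.61 (*Cnn1*), -0.15 (*Smtn*) and -0.0055 (*Kcnj8*), and none of them was called. The smooth muscle markers *Tagln*, *Lmod1*, *Pdgfrb*, *Rgs5* and *Notch3* had no named peak. Endothelial, fibroblast and immune lists of 8 genes each had 2, 1 and 1 genes with a peak and overlapping sums. The part of other cell types in the differences at *Myocd* and *Acta2* was not tested.

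To place the members among the genes they act with, 5 lists of partner and target genes were compared. For each gene the peak of highest mean over all 6 libraries was taken, so other peaks of a gene were not counted. A tested peak was present at 103 of 121 genes. Of these, 9 were lower and 3 were higher (11.7% together), against 1.26% lower and 0.967% higher (2.22% together) among all 11067 named genes. The lists were written with earlier results of these data known, so these shares are a description and not a test. The median log2 difference over the 103 genes was -0.03, against 0.02 over all named genes.

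Among partners of SRF, a tested peak was present at 20 of 21 genes, and 3 were lower. *Hopx*, which encodes a small homeodomain protein that restrains SRF, fell from 201 ± 18.6 to 101 ± 32.1 normalized counts (SD, n = 3 each), a log2 difference of -1.02 (SE 0.16), and its adjusted p was 0.000406 in limma. *Fhl2*, a LIM-domain protein that binds SRF and is itself an SRF target, fell from 1041 ± 45.9 to 660 ± 103 (SD, n = 3 each), a log2 difference of -0.67. *Tbx5*, a cardiac transcription factor, fell by 0.41 on the log2 scale, with an adjusted p of 0.0167 in limma that exceeded 0.05 in 4 of 14 alternatives, among them the fits without CtrlCre replicate 1 and without Cpt1bcKO replicate 2 or 3. *Mamstr*, a relative of myocardin that coactivates MEF2 factors, had 40, 42 and 33 normalized counts in controls and 24, 17 and 15 in Cpt1bcKO libraries, but its adjusted p was 0.0724 in limma. *Ep300* (0.22), *Foxo4* (-0.33) and *Mef2a* (-0.18), with log2 differences in parentheses, were not called. The median of the list was -0.10.

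Among SRF targets of muscle and cytoskeleton, 5 were lower and 1 was higher of 29 tested, from a list of 38. The actin genes moved in different directions. Skeletal α-actin, *Acta1*, rose from 36.7 ± 12.9 to 135 ± 39.0 normalized counts, a log2 difference of 1.88 (SE 0.24), whereas smooth muscle α-actin, *Acta2*, fell from 95.7 ± 24.0 to 21 ± 9.85, a log2 difference of -2.23 (SE 0.30) (SD, n = 3 each). Cardiac α-actin, *Actc1*, fell from 835 ± 102 to 466 ± 150 (SD, n = 3 each), a log2 difference of -0.89. Each of the 3 kept its call in limma under all 14 alternatives, with the highest adjusted p at 0.0224 for *Actc1*. *Ccn2*, which encodes a matricellular growth factor, and *Csrp3*, which encodes muscle LIM protein, fell by 0.44 and 0.48 on the log2 scale, with adjusted p-values of 0.0159 and 0.0347 in limma that exceeded 0.05 in 4 and 5 of 14 alternatives. *Flna* (-0.73), *Pdlim7* (-0.49) and *Des* (0.30), with log2 differences in parentheses, were not called. The median over the 29 genes was -0.15, with 18 genes below and 11 above 0.

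Of 14 tested immediate early targets of SRF, *Dusp1*, a phosphatase of mitogen-activated kinases, fell from 434 ± 28.0 to 289 ± 24.8 and the nuclear receptor gene *Nr4a1* rose from 50.7 ± 12.4 to 112 ± 24.7 normalized counts (SD, n = 3 each). Their log2 differences were -0.58 and 1.13. Another *Nr4a1* peak, higher than this one in controls, went the other way. It had 93, 74 and 101 normalized counts in controls and 63, 53 and 55 in Cpt1bcKO libraries, a log2 difference of -0.63. The rise thus holds for 1 peak of *Nr4a1* and not for the gene. *Arc* (-0.48), *Ier2* (-0.16), *Egr1* (-0.16) and *Egr3* (0.25) were not called, and the median was 0.0028.

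In the list of myosin light chain phosphorylation, 21 of 27 genes had a tested peak. *Ppp1r14b*, an inhibitor of myosin phosphatase, rose from 165 ± 20.1 to 224 ± 14.1 normalized counts (SD, n = 3 each), a log2 difference of 0.44, and its adjusted p was 0.025 in limma. *Myl12b*, a non-muscle regulatory light chain, fell from 27.3 ± 6.66 to 9.33 ± 1.15 (SD, n = 3 each), with an adjusted p of 0.0427 in limma. The call at *Ppp1r14b* was lost in 5 of 14 alternatives and that at *Myl12b* in 8 of 13, including each fit that left out a library. *Myl2*, the ventricular regulatory light chain that the cardiac kinase acts on, had log2 difference -0.29, *Mybpc3* 0.26, *Rock2* -0.32 and *Ppp1r14c* -0.21, none of which was called.

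**Figure D5:**
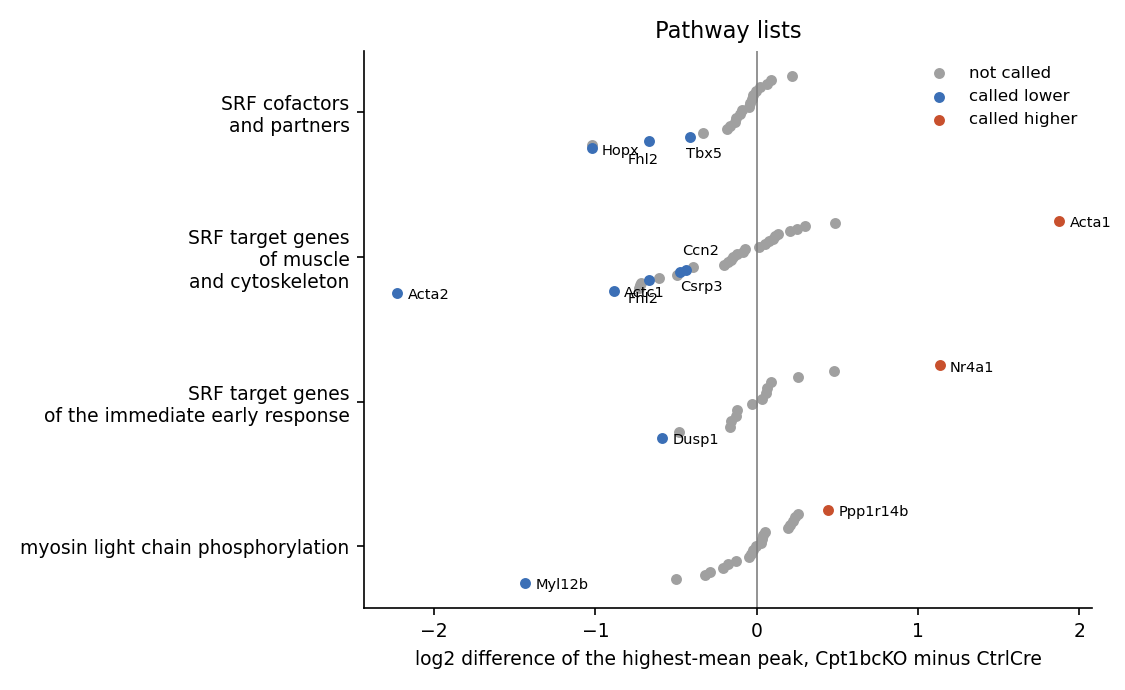
Log2 difference between Cpt1bcKO and CtrlCre CMs (x axis) of the highest-mean peak of each tested gene in 4 lists of partners and targets (y axis, genes ordered by difference within a list), with genes called lower in blue, called higher in red and others in grey. *Acta2* lies farthest to the left and *Acta1* farthest to the right.

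Finally, the peaks whose values ran most alike with those of *Mylk3* and *Myocd* were sought among 9326 named peaks of other genes with a mean of at least 50. These correlations are over 6 libraries that include both genotypes, so they include the difference between genotypes. The promoter peak of *Mylk3* ran closest to peaks of *Fgf14* (Pearson's r = 0.988), *Nr4a1* (0.981) and *Gpx7* (0.979). The *Nr4a1* peak found here (chr15:101265691-101267927) had 93, 74 and 101 normalized counts in controls and 63, 53 and 55 in Cpt1bcKO libraries, and is distinct from the higher-mean *Nr4a1* peak above, which rose. The *Myocd* peak ran closest to peaks of *Ube2e3* (0.997), *Gpr22* (0.991) and *Ccbe1* (0.987), with log2 differences of -0.27, -1.64 and -0.94.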

How the data were processed

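H3K4me3 ChIP–seq values of 3 CtrlCre and 3 Cpt1bcKO libraries were used, grouped by their titles. Input libraries were listed, but the table has no input columns. The authors trimmed reads with Trimmomatic 0.39, aligned them with STAR 2.6.1d to mm10 (GRCm38), kept unique unspliced alignments, removed duplicates with Picard 2.21.7, and called peaks over input with MUSIC (false discovery rate 0.2). They merged peaks, discarded blacklisted regions, and assigned a peak to the nearest promoter within 5000 bases, so that genes sharing a peak cannot be separated. Widths are those of merged peaks. The authors divided the deposited counts per library by DESeq2 1.26.0 size factors and rounded them, hence a score here and no raw counts. The deposited genotype means are an unrounded signal from the same values. Deposited log2 fold changes, p-values and adjusted p-values of the authors' own DESeq2 test were not used.

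Peaks with a mean of at least 10 were tested with limma 3.58.1 (R 4.3.3) (lmFit, then eBayes with trend) on log2(value + 1), with genotype as the only term, two-sided, with Benjamini–Hochberg adjustment over all 15039 tested peaks. Log2 differences are on this scale, which understates changes of low peaks. The fit was tested on simulated peaks, of which 200 were changed. All had the same fixed dispersion, which was not estimated from these data. It called 10% of 1.5-fold and 65% of 2-fold changes, and 1.32% of its calls were false. These shares hold for that setting only. A peak that was not called is thus not shown to be unchanged. The count recovery was also tested on simulated data with the size factors already fitted, and 4000 of 4000 simulated peaks were recovered exactly. In the deposited data, counts were recovered from the rounded values and genotype means for 15848 of 15848 peaks. Sums were required to match within 4e-06. Counting errors take each recovered count as a read, which the way the counts were obtained does not show. These errors and the level of a recovered count of 3 cover counting error only. Positions and transcripts are from GENCODE vM21 and promoters from RefSeq, both on GRCm38. The members, the pathway lists and the markers were chosen with earlier results of these data known. All member peaks and the other tested peaks at these genes are named, and of each list the called genes and up to 4 others of smallest p. The genes of 1 of the 5 lists are counted in the total, but that list is not reported here. For likeness, the 3 best-correlated peaks are named. Alternatives varied the pseudocount, the filter, the scaling, the model, the libraries, the peak chosen per gene and the distance around genes. Figures and tables were made in Python 3.11.15.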

Additional observations from a re-analysis of the deposited data

How the results depend on the processing

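The member peaks were chosen on this contrast, so calls at them say nothing of stability. With a mean of at least 50 the upstream *Mylk3* peak was no longer tested. The number of changed peaks was 441, with 338 to 503 under other settings (503 with limma-voom on recovered counts) and 233 to 428 without single libraries, the lowest without CtrlCre replicate 1. It was 290 without Cpt1bcKO replicate 2 and 247 without Cpt1bcKO replicate 3. The 12 changed genes of the lists became 10 to 13 and, without single libraries, 7 to 11, with 7 without CtrlCre replicate 1. Of the 5 other peaks, 2 were called, against 4 with a pseudocount of 5, 1 at the stricter filter (mean of at least 50) and 1 to 2 without single libraries, with 1 without Cpt1bcKO replicate 1 or 3. The difference at *Srf* was reversed to -0.017 without Cpt1bcKO replicate 3, within a range up to 0.20 (without CtrlCre replicate 2). The cause was not tested.

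No label pairs the libraries by replicate number, and whether libraries of the same number share a litter or a preparation was not given. Correlations of their deviations from genotype means were 0.0759, -0.0812 and 0.105. With the replicate block, 370 peaks, 10 list genes and 2 other peaks were called. The block moved the internal *Mkl2* peak to an adjusted p of 0.0199 and the internal *Mylk3* peak to 0.0908 in limma, and it ended the calls at *Tbx5*, *Csrp3* and *Myl12b*. Depth limits the low peaks. The split by CpG content was added after the data were seen.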
